A study of Mus musculus with 26 samples.

Results

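Ferritin and its partners in iron handling were followed through 26 single inner cell masses (ICMs), the cell group of the mouse blastocyst that gives rise to epiblast and primitive endoderm. The members are 9 genes out of the 55254 gene symbols measured: the ferritin chains Ftl1 and Fth1, the uptake and export genes Tfrc, Slc11a2 and Slc40a1, the ferritin receptor Ncoa4, the iron sensors Aco1 and Ireb2, and the haem oxygenase Hmox1. They were picked by symbol, as storage, transport, sensing and haem genes, after Ftl1 and Fth1 had been seen to differ between the LY and DMSO groups. That comparison is therefore given as a description, with no test of the members. Of the 9 members, 8 were among the 12034 genes tested, and Slc40a1 was too low to test.

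CD-1 morulae of stage E2.75 were cultured in KSOM for 24 h, and each library is the ICM of 1 embryo, isolated by immunosurgery, which lyses the outer cells. The groups were LY+FGF4 (10 µM LY294002 with 1 µg/ml FGF4 and heparin, n = 6), FGF4 (1 µg/ml FGF4 and heparin, n = 8), LY (10 µM LY294002, n = 7) and DMSO (the vehicle, n = 5). Heparin is named only for the groups with FGF4, so effects of FGF4 and of heparin cannot be told apart. LY294002 inhibits PI3K, and FGF4 is the growth factor that directs ICM cells towards primitive endoderm. The embryos came from 5 litters, mixed before they were shared out, and no library is tied to a litter. All 26 carry the same date. FLASH-seq reads polyadenylated RNA over its whole length, and values are TPM, a transcript abundance that is scaled for transcript length and sums to the same total in every library. Such a value is a share of a library, so fewer cells of a type and less RNA per cell cannot be told apart.

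Iron reaches cells bound to transferrin through the transferrin receptor, leaves the endosome through DMT1 (Slc11a2) and is stored inside a ferritin shell of heavy (Fth1) and light (Ftl1) chains. NCOA4 carries ferritin to the lysosome, where its iron is set free, and ferroportin (Slc40a1) exports iron. When iron is scarce, IRP1 (encoded by Aco1, and otherwise a cytosolic aconitase) and IRP2 (Ireb2) bind iron-responsive elements, hairpins in the untranslated regions of messenger RNA. A hairpin in the 5′ untranslated region holds back translation, as in ferritin, and hairpins in the 3′ untranslated region protect the message from decay, as in Tfrc. Control of translation is not seen in RNA levels. Ferritin genes are also switched on by transcription factors, among them NRF2.

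The hairpins are shown because they set the members apart by how their messages are controlled. In GENCODE M21 transcripts on GRCm38 (mm10), 5 of the 9 members held a match to an iron-responsive element. The pattern was a C, any 5 bases, CAGTGN with A, C or T as N, and 5 bases of which at least 4 pair with those before the loop, G with T counted as a pair. It was searched on the sense strand of the longest coding transcript of each of 21877 protein-coding genes. Of those genes, 0.448% held a match in the 5′ untranslated region and 2.82% in the 3′ untranslated region. A match is a description of the letters and no proof of a working site. Untranslated exon here means exon sequence within the untranslated region, and the same exon may also hold coding sequence. Capitals mark the loop, CAGTGN, and each line runs 5′ to 3′.
Ftl1, 5′ untranslated exon, chr7:45459778-45459807, minus strand: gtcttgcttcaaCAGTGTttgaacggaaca
Fth1, 5′ untranslated exon, chr19:9982732-9982761, plus strand: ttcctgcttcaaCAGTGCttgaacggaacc
Slc40a1, 5′ untranslated exon, chr1:45925464-45925493, minus strand: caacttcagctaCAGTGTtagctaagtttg
Tfrc, 3′ untranslated exon, chr16:32631219-32631248, plus strand: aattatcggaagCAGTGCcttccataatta
Tfrc, 3′ untranslated exon, chr16:32631598-32631627, plus strand: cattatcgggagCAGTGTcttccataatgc
Tfrc, 3′ untranslated exon, chr16:32631663-32631692, plus strand: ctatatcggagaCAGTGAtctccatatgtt
Tfrc, 3′ untranslated exon, chr16:32631710-32631739, plus strand: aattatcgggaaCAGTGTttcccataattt
Slc11a2, 3′ untranslated exon, chr15:100395152-100395181, minus strand: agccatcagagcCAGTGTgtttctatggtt

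The ferritin elements lie before the coding sequence, together with that of the exporter, and those of the import genes Tfrc and Slc11a2 lie after it. In the Slc11a2 match 4 of the 5 stem pairs close, and in the others all 5. The transcripts of Ncoa4 (chr14:32159865-32179855, plus strand), Aco1 (chr4:40143081-40198338, plus strand), Ireb2 (chr9:54863789-54912530, plus strand) and Hmox1 (chr8:75093621-75100589, plus strand) held no match.

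The libraries differed in how many genes they listed. LY+FGF4 libraries had between 7486 and 9534 genes at 1 TPM or more, FGF4 libraries between 8315 and 10871, LY libraries between 9860 and 10215, and DMSO libraries between 10212 and 11367. Below 9000 genes stood 6 libraries, which were LY+FGF4 replicates 2, 3, 5 and 8 and FGF4 replicates 2 and 3. Of 9 ICM markers, 5 were above 0 in all 26 libraries. Of 12 erythroid and macrophage markers, the cell types best known for ferritin and haem, 9 were at 0 in every library, including Hba-a1, Hbb-bs, Klf1, Csf1r, Adgre1 and Ptprc. Cd68 was above 0 in every LY and DMSO library and in some of the other groups, at up to 15.3 TPM. Gata1 was seen only in LY and DMSO libraries, at up to 13.6 TPM, and Alas2 only in DMSO, at up to 2.59 TPM. The summed level of the 12 markers reached at most 4.85 TPM in LY+FGF4, 15.3 TPM in FGF4, 15.98 TPM in LY and 23.2 TPM in DMSO libraries. Trophectoderm markers, the outer cells that immunosurgery removes, were still present: 3 of 15 were above 0 in every library.

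Ferritin messages were among the most abundant of the ICM. By mean TPM over the 26 libraries, Ftl1 ranked 8 and Fth1 ranked 55 of the 55254 symbols. Together they made up 0.599 ± 0.110% of all TPM in LY+FGF4 libraries (SD, n = 6), 0.286 ± 0.0388% in FGF4 (n = 8), 0.664 ± 0.165% in LY (n = 7) and 0.273 ± 0.0581% in DMSO libraries (n = 5).

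Ftl1 (chr7:45457944-45459884, minus strand) encodes the light chain, which helps iron to form its mineral core. Its level was 5097, 5085, 3454, 4651, 3506 and 3210 TPM in the 6 LY+FGF4 ICMs, against 2217, 2482, 1945, 2064, 2525, 1577, 1750 and 1836 TPM in the 8 FGF4 ICMs. Every LY+FGF4 ICM stood above every FGF4 ICM. Under LY alone it was 5481, 6302, 4775, 4077, 3035, 3048 and 3334 TPM, against 1564, 1606, 1504, 2373 and 1577 TPM in DMSO. These groups did not overlap either, and DMSO replicate 8 was the only DMSO library above 1606 TPM.

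Fth1 (chr19:9980598-9985098, plus strand) encodes the heavy chain, the ferroxidase that oxidises iron as it enters the shell. Its level was 2409, 2044, 1264, 1208, 1735 and 2269 TPM in LY+FGF4, against 682, 662, 703, 482, 1139, 1139, 716 and 974 TPM in FGF4. The lowest LY+FGF4 value lay just above the highest FGF4 values. It was 1740, 2507, 2219, 4344, 2081, 1714 and 1819 TPM in LY, against 852, 758, 952, 1373 and 1071 TPM in DMSO. LY replicate 5 had the highest Fth1 level of all 26 libraries, and no LY library came down to the DMSO range.

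**Figure D1:**
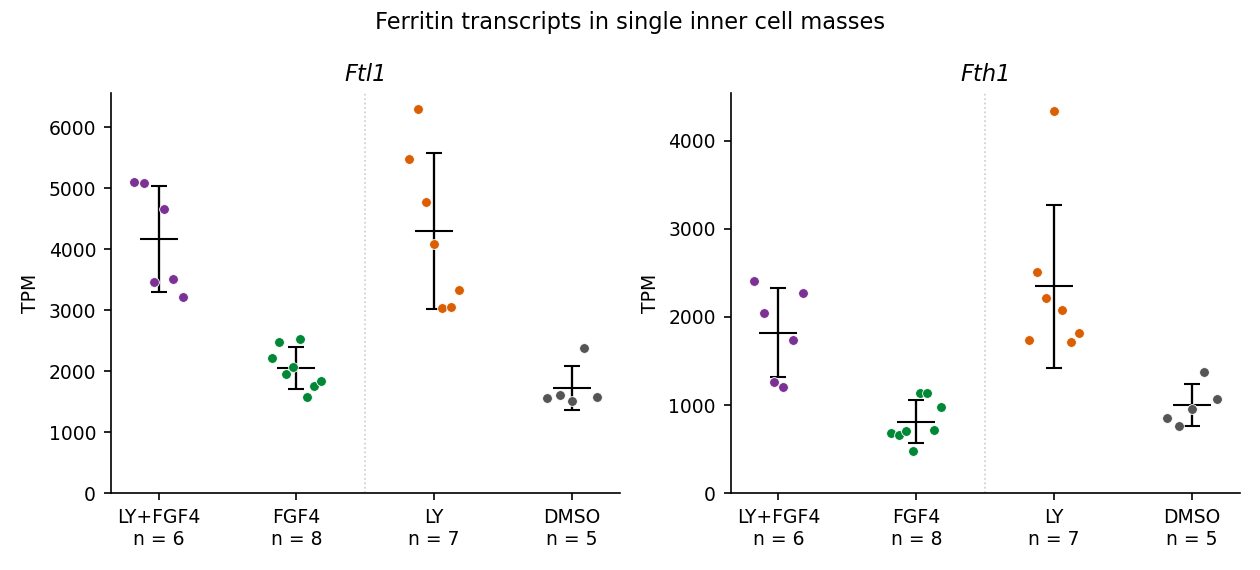
Level of Ftl1 (left) and Fth1 (right) in TPM, with 1 point per ICM and the mean ± SD of each group as black bars, for LY+FGF4 (n = 6), FGF4 (n = 8), LY (n = 7) and DMSO (n = 5). For both genes each group with LY lies above its counterpart without LY, with LY+FGF4 means of 4167 and 1822 TPM against FGF4 means of 2049 and 812 TPM.

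LY+FGF4 was compared with FGF4 to see what LY does when FGF4 is supplied. The 2 groups share no library with LY against DMSO, but the spread used in the test was estimated from all 26 libraries. Both ferritin chains rose and no other member passed the test: 2 of 8 members, where 0.723% of the 12034 genes rose and 3.55% changed in either direction. Both are the genes whose LY against DMSO difference prompted the list, so this count is no result about iron genes as a set. The test was limma on log2(TPM + 1), 2-sided, with p-values adjusted by Benjamini-Hochberg over all genes tested. Ftl1 averaged 4167 ± 872 TPM in LY+FGF4 and 2049 ± 341 TPM in FGF4 (SD, n = 6 and 8), a ratio of 2.03. Its log2 fold change was 1.01 (SE 0.164, 95% interval 0.68 to 1.35, limma adjusted p = 0.000551). Fth1 averaged 1822 ± 508 TPM in LY+FGF4 and 812 ± 242 TPM in FGF4, a ratio of 2.24. Its log2 fold change was 1.17 (SE 0.216, 95% interval 0.73 to 1.61, limma adjusted p = 0.00254). Groups in which every LY+FGF4 value lay above every FGF4 value occurred in 0.150% of the genes tested.

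Fth1 lost its call when the 6 libraries with few genes were left out. That run also has fewer libraries, so gene number and sample size cannot be told apart in it. Without those 6, LY+FGF4 keeps replicates 6 and 7, the log2 fold change was 0.82 and the limma adjusted p = 0.232, while Ftl1 gave 1.03 with adjusted p = 0.0366. With a weight for each library, Fth1 gave 1.03 with limma adjusted p = 0.0507. Genes listed per library had a median of 8650.5 in LY+FGF4 and 10504.5 in FGF4. As a covariate they left Ftl1 at 0.89 (limma adjusted p = 0.0295), and Fth1 also passed with this covariate. The summed trophectoderm markers ranged from 668 to 2202 TPM in LY+FGF4 and from 477 to 1735 TPM in FGF4. The trophectoderm score is another measure, the mean log2(TPM + 1) of the 11 tested markers. With that score as a covariate Ftl1 stood at 1.02 (limma adjusted p = 0.000523). The summed primitive endoderm markers ranged from 721 to 2558 TPM in LY+FGF4 and from 1363 to 2575 TPM in FGF4, and their part in the ferritin result was not tested.

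In LY against DMSO, the comparison from which the members were proposed, the log2 fold change was 1.28 for Ftl1 and 1.18 for Fth1. Ftl1 averaged 4293 ± 1277 TPM in LY and 1725 ± 364 TPM in DMSO, and Fth1 averaged 2346 ± 926 TPM in LY and 1001 ± 238 TPM in DMSO (SD, n = 7 and 5). The levels stood apart for these 2 of the 8 members, and for 0.806% of all genes tested in that direction. The 2 shares cannot be weighed against each other, because the members were picked after both chains were seen to differ here. Of the 12034 genes, 0.374% passed the test here. The summed trophectoderm markers were between 1801 and 2725 TPM in LY and between 1296 and 2434 TPM in DMSO. Sfn alone was between 831 and 1761 TPM in LY and between 547 and 1015 TPM in DMSO. Their sum averaged higher in LY (2253 TPM) than in DMSO (1776 TPM). Their mean log2 score averaged lower, with 5.02 ± 0.277 in LY and 5.53 ± 0.416 in DMSO (SD). The summed primitive endoderm markers were between 178 and 387 TPM in LY and between 428 and 822 TPM in DMSO, with no overlap, and their part in the difference was not tested.

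Neither ferritin chain passed the test for added FGF4. LY+FGF4 against LY shares the LY libraries, and FGF4 against DMSO the DMSO libraries, with the comparison that chose the members. In LY+FGF4 against LY, Ftl1 had a log2 fold change of -0.02 with a 95% interval of -0.36 to 0.33, and Fth1 of -0.34 with an interval of -0.80 to 0.11 (limma adjusted p = 0.974 and 0.388). In FGF4 against DMSO, Ftl1 had 0.25 with an interval of -0.10 to 0.61, and Fth1 had -0.33 with an interval of -0.79 to 0.14 (limma adjusted p = 0.514 and 0.525). The order of mean Ftl1 levels was LY, LY+FGF4, FGF4 and DMSO, and that of Fth1 was LY, LY+FGF4, DMSO and FGF4. In both orders the first pair and the last pair of neighbours did not differ beyond their spread.

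**Figure D2:**
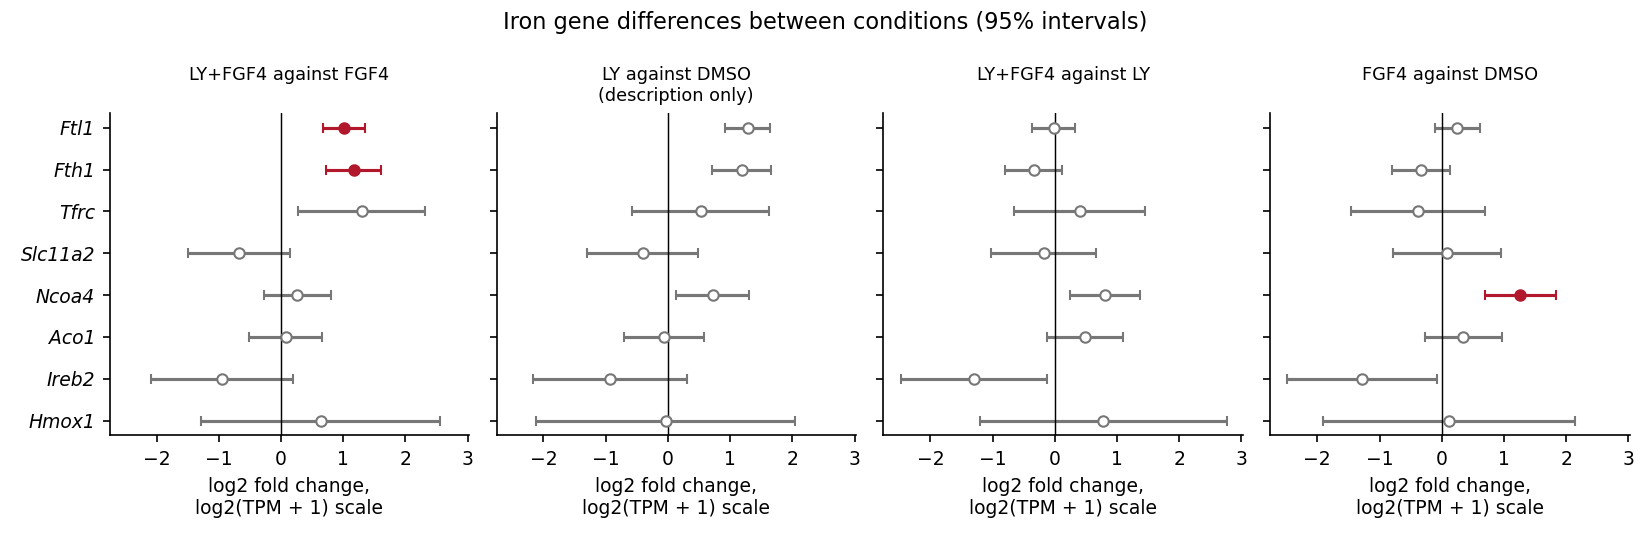
Log2 fold change on the log2(TPM + 1) scale of the 8 tested members in 4 comparisons, with 95% intervals from limma. Filled red points passed an adjusted p of 0.05, which were Ftl1 (1.01) and Fth1 (1.17) in LY+FGF4 against FGF4 and Ncoa4 (1.26) in FGF4 against DMSO, and LY against DMSO is shown without a call.

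The chains rose with LY as groups, yet among ICMs of the same group their levels were not seen to go together. After each group's mean was taken out, the log2 deviations of Ftl1 and Fth1 over 26 ICMs had Pearson r = 0.160 and Spearman rho = 0.179 (permutation p = 0.489 and 0.412, 2-sided). No interval for r was computed, so these values do not show that the chains vary independently. Correlations of other pairs of members were not computed. Without LY replicate 3 and DMSO replicate 8, the farthest on Ftl1, r was 0.0456. The ratio of Fth1 to Ftl1 ranged from 0.260 to 0.707 in LY+FGF4, from 0.233 to 0.722 in FGF4, from 0.318 to 1.07 in LY and from 0.472 to 0.679 in DMSO. LY replicate 5 was the only ICM with more Fth1 than Ftl1.

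**Figure D3:**
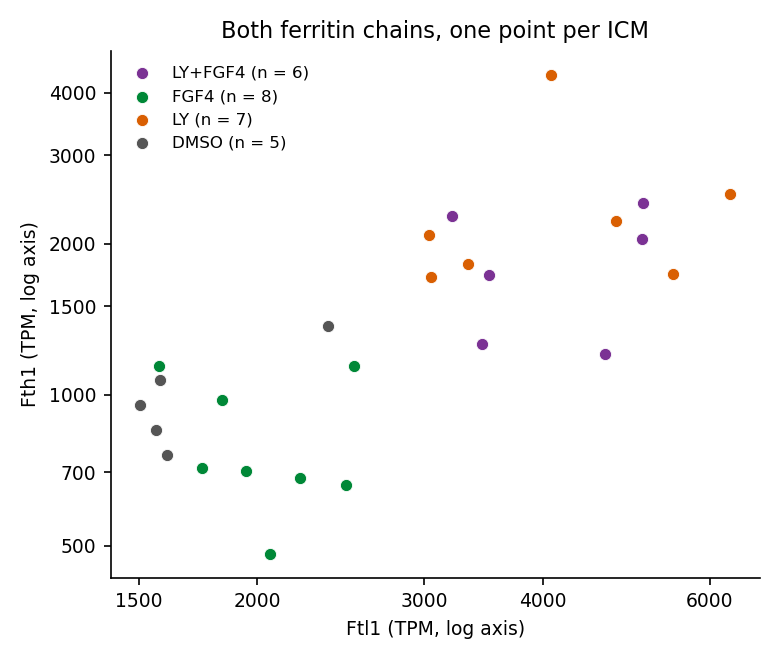
Fth1 against Ftl1 in TPM on log axes, with 1 point per ICM coloured by group (LY+FGF4 n = 6, FGF4 n = 8, LY n = 7, DMSO n = 5). LY+FGF4 and LY points start at 3035 TPM of Ftl1, FGF4 and DMSO points end at 2525 TPM, and within a colour the points show no clear slope (r = 0.160 over the within-group deviations).

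The uptake genes were present at much lower levels than ferritin. Tfrc (chr16:32608920-32632794, plus strand), the transferrin receptor, had 47.7, 97.7, 22.4, 25.9, 28.9 and 37.7 TPM in the LY+FGF4 ICMs, against 15.1, 1.90, 19.4, 22.4, 7.50, 9.98, 24.6 and 73.1 TPM in the FGF4 ICMs. Most LY+FGF4 values exceeded most FGF4 values, but FGF4 replicate 8 lay inside the upper range and the groups overlapped. The log2 fold change of 1.30 (SE 0.498, 95% interval 0.28 to 2.32) missed the threshold with limma adjusted p = 0.146. LY libraries ranged from 22.6 to 42.1 TPM and DMSO libraries from 10.7 to 29.5 TPM, a log2 difference of 0.53.

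Slc11a2 (chr15:100387898-100425072, minus strand) encodes DMT1, which moves ferrous iron across the endosomal membrane. It had 85.8, 72.3, 8.30, 25.1, 23 and 24.5 TPM in LY+FGF4, with a median of 56.6 TPM and a range from 28.6 to 71.6 TPM in FGF4. LY+FGF4 replicates 2 and 3 stood above all FGF4 libraries and the other 4 below all of them. The log2 fold change was -0.67 (95% interval -1.50 to 0.15, limma adjusted p = 0.377). The level ranged from 21.5 to 55.5 TPM in LY and from 32.4 to 71.3 TPM in DMSO.

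Slc40a1 (chr1:45908068-45926523, minus strand), the exporter ferroportin, was above 0 in 3 of 26 libraries. These were LY+FGF4 replicate 7 with 8.04 TPM, LY+FGF4 replicate 3 with 0.81 TPM and LY replicate 8 with 0.95 TPM. It was listed at 0 in all FGF4 and DMSO libraries. TPM carry no read depth, so a listed 0 gives no upper limit.

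Ncoa4 (chr14:32159865-32179855, plus strand), the receptor that delivers ferritin to autophagy, was highest in the groups with FGF4. It had 323, 224, 95.9, 315, 296, 323, 303 and 350 TPM in the FGF4 ICMs, against 162, 85.7, 56.0, 153 and 127 TPM in DMSO. All FGF4 libraries but replicate 3 lay above the highest DMSO library. Ncoa4 was the only 1 of 8 members to pass in FGF4 against DMSO, where 0.981% of genes rose and 2.44% changed. It averaged 279 ± 82.4 TPM in FGF4 and 117 ± 45.0 TPM in DMSO (SD, n = 8 and 5), with a log2 fold change of 1.26 (SE 0.278, limma adjusted p = 0.0118). Without DMSO replicate 7, the lowest, the adjusted p was 0.0653, and with the trophectoderm score as a covariate it was 0.0602. The summed trophectoderm markers had a median of 702 TPM in FGF4 and 1774 TPM in DMSO. The summed primitive endoderm markers were between 1363 and 2575 TPM in FGF4 and between 428 and 822 TPM in DMSO, and the epiblast markers between 194 and 684 TPM in FGF4 and between 1017 and 1493 TPM in DMSO. Neither pair of ranges overlaps, and their part in the Ncoa4 difference was not tested.

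In the presence of LY, Ncoa4 had 314, 324, 320, 356, 377 and 221 TPM in LY+FGF4, against 170, 175, 133, 220, 246, 135 and 205 TPM in LY. Of the 6 LY+FGF4 libraries 5 exceeded every LY library. Its log2 fold change of 0.81 (SE 0.271, 95% interval 0.25 to 1.36) missed the threshold with limma adjusted p = 0.0726. With genes listed per library as a covariate it was 1.40 (limma adjusted p = 0.0228). No member passed in LY+FGF4 against LY in limma's main test (0 of 8, with 2 at an unadjusted p under 0.05), where 6.30% of all genes did and 21.6% had such an unadjusted p. In LY+FGF4 against FGF4, Ncoa4 had a log2 fold change of 0.26 (limma adjusted p = 0.636), and in LY against DMSO its difference was 0.72. Whether the FGF4 difference of Ncoa4 changes with LY was not tested.

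The iron sensors behaved differently from each other in level. Aco1 (chr4:40143081-40198338, plus strand) averaged 157 ± 43.9 TPM in LY+FGF4, 146 ± 37.1 in FGF4, 122 ± 76.8 in LY and 114 ± 29.7 TPM in DMSO. Its groups overlapped in all comparisons, and the limma adjusted p was between 0.355 and 0.923 in the 3 comparisons tested. Ireb2 (chr9:54863789-54912530, plus strand), encoding IRP2, was far less abundant, with 0, 3.85, 4.28, 2.43, 6.38 and 6.32 TPM in LY+FGF4, against 4.34, 1.76, 3.70, 14.7, 10.9, 7.37, 13.6 and 8.48 TPM in FGF4. It had 7.76, 4.68, 3.85, 9.37, 24.2, 20.5 and 6.84 TPM in LY, against 5.60, 27.6, 28.5, 20.3 and 21.2 TPM in DMSO.

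Ireb2 was lowest in LY+FGF4 and highest in DMSO by mean, while DMSO replicate 3 lay among the low values. It passed in none of the 3 comparisons tested. Its log2 fold change was -0.94 in LY+FGF4 against FGF4 (limma adjusted p = 0.371), -1.30 in LY+FGF4 against LY (limma adjusted p = 0.179) and -1.29 in FGF4 against DMSO (limma adjusted p = 0.279). The LY against DMSO difference was -0.93.

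Hmox1 (chr8:75093621-75100589, plus strand), the inducible haem oxygenase that frees iron from haem, varied the most of the members among ICMs of LY+FGF4, of FGF4 and of LY on the log2 scale, and little in DMSO. It had 170, 81.9, 23.6, 5.61, 26.96 and 11.1 TPM in LY+FGF4, against 24.0, 0, 23.9, 18.03, 32.2, 45.8, 33.8 and 31.8 TPM in FGF4. In LY it had 12.1, 74.1, 18.5, 160, 0, 53.7 and 2.15 TPM, whereas the 5 DMSO libraries lay between 15.2 and 19.1 TPM. In both groups with LY single ICMs were high, while others had 12.1 TPM or less. The log2 fold change in LY+FGF4 against FGF4 was 0.64 with a 95% interval of -1.28 to 2.56 (limma adjusted p = 0.767), and its sign turned without the 6 libraries with few genes (-1.18).

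**Figure D4:**
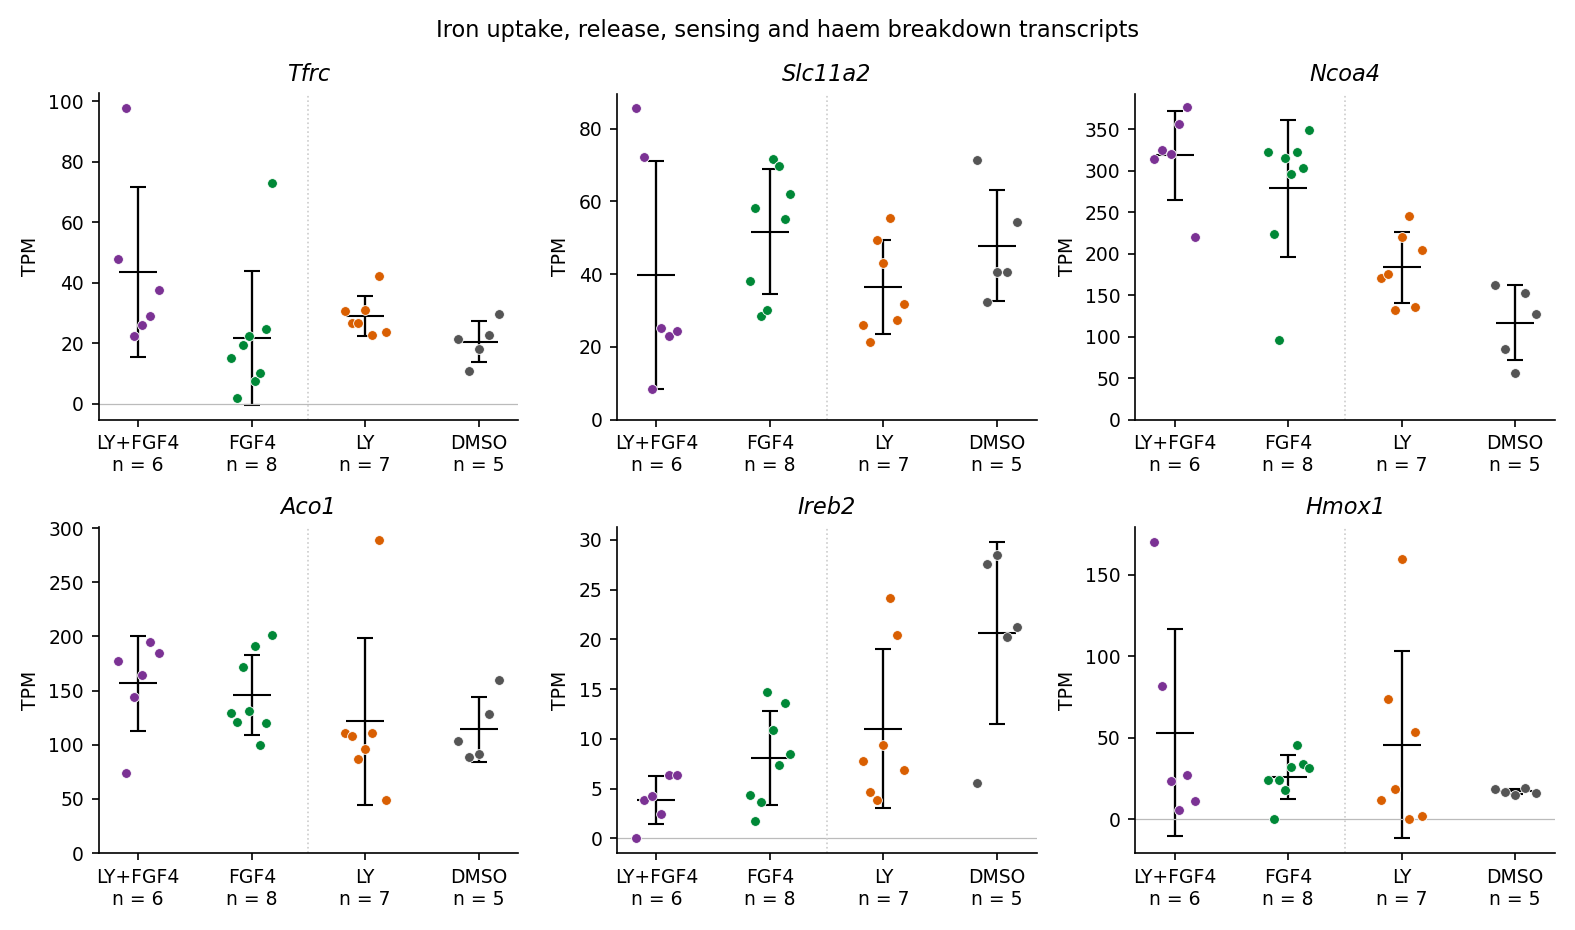
Level in TPM of Tfrc, Slc11a2, Ncoa4, Aco1, Ireb2 and Hmox1, with 1 point per ICM and the mean ± SD of each group as black bars (LY+FGF4 n = 6, FGF4 n = 8, LY n = 7, DMSO n = 5). Ncoa4 means were 319 and 279 TPM in the groups with FGF4 against 184 and 117 TPM in those without, and Hmox1 spread from 5.61 to 170 TPM in LY+FGF4.

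Ferritin has processed copies in the mouse genome, and the division of reads among such copies is not stated, so the levels of Ftl1 and Fth1 are uncertain to that extent. Of 17 copies and relatives in the table, 11 were above 0 in some library. Ftl1-ps1 (chr13:74399694-74407346, plus strand), annotated as protein-coding despite its name, was above 0 in all 26 and averaged 102 ± 48.2 TPM in LY+FGF4, 79.8 ± 63.1 in FGF4, 61.8 ± 17.1 in LY and 87.9 ± 53.8 TPM in DMSO. It did not pass in LY+FGF4 against FGF4 (log2 fold change 0.44, limma adjusted p = 0.574) and was lower in mean in LY than in DMSO. Ftl2-ps was above 0 in 18 libraries and reached 102 TPM.

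The other copies were rare. Fthl17a was above 0 in 9 libraries, Fthl17f in 7, Fthl17d in 4, Fthl17c in 3, Ftl1-ps2, Fth-ps2, Fthl17b and Fthl17-ps1 in 2 each and Fthl17-ps2 in 1. The highest of these values was 44.7 TPM, for Ftl1-ps2 in a LY+FGF4 library. Ftmt, the mitochondrial ferritin, was listed at 0 throughout.

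The other genes of iron metabolism were described by 7 lists. Of their 127 genes, 110 were tested, and in LY+FGF4 against FGF4 0 rose and 5 fell, where 0.723% of all genes rose and 2.83% fell. They had a median log2 fold change of -0.16 against -0.24 over all genes, and 21 had an unadjusted p under 0.05, as had 18.8% of all genes. With genes listed per library as a covariate 2 of the list were called, 1 of them higher. Iron transport had 0 rising and 1 falling of 12, iron chaperones and IRP control 0 and 0 of 14, haem synthesis, transport and breakdown 0 and 0 of 25, mitochondrial iron-sulphur assembly 0 and 0 of 19, cytosolic iron-sulphur assembly 0 and 2 of 9, regulators of ferritin transcription 0 and 1 of 13, and NRF2 target enzymes 0 and 1 of 18. The list medians were 0.05, 0.02, -0.20, -0.39, -0.04, -0.54 and 0.16 in the same order.

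The genes that fell came from different lists. Mafk, a small MAF protein that pairs with NRF2, ranged from 0 to 6.30 TPM in LY+FGF4, with 4 of 6 libraries at 0, and from 0 to 45.2 TPM in FGF4 (log2 fold change -2.89, limma adjusted p = 0.0154). Me1, the malic enzyme that makes NADPH, averaged 47.8 ± 15.2 TPM in LY+FGF4 and 107 ± 31.3 TPM in FGF4 (-1.15, limma adjusted p = 0.0157). Cubn, the endocytic receptor cubilin, which is also on the primitive endoderm marker list, reached 2.49 TPM in LY+FGF4 and 13.6 TPM in FGF4 (-2.01, limma adjusted p = 0.0170). With genes listed per library as a covariate, none of these 3 passed (limma adjusted p = 0.338, 0.143 and 0.314).

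Both falling genes of cytosolic iron-sulphur assembly lost their call when a single library was left out. Ciao2a averaged 235 ± 97.3 TPM in LY+FGF4 and 407 ± 82.8 TPM in FGF4 (log2 fold change -0.91, limma adjusted p = 0.0286). Mms19 was at 0 in 3 of 6 LY+FGF4 libraries but at 268 TPM in another, against 6.01 to 183 TPM in FGF4 (-3.55, limma adjusted p = 0.0264). Ciao2a no longer passed without LY+FGF4 replicate 2 or 6 (limma adjusted p = 0.0700 and 0.0603). Mms19 did not pass without LY+FGF4 replicate 5, 6 or 8 (limma adjusted p = 0.0613, 0.0556 and 0.0633).

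**Figure D5:**
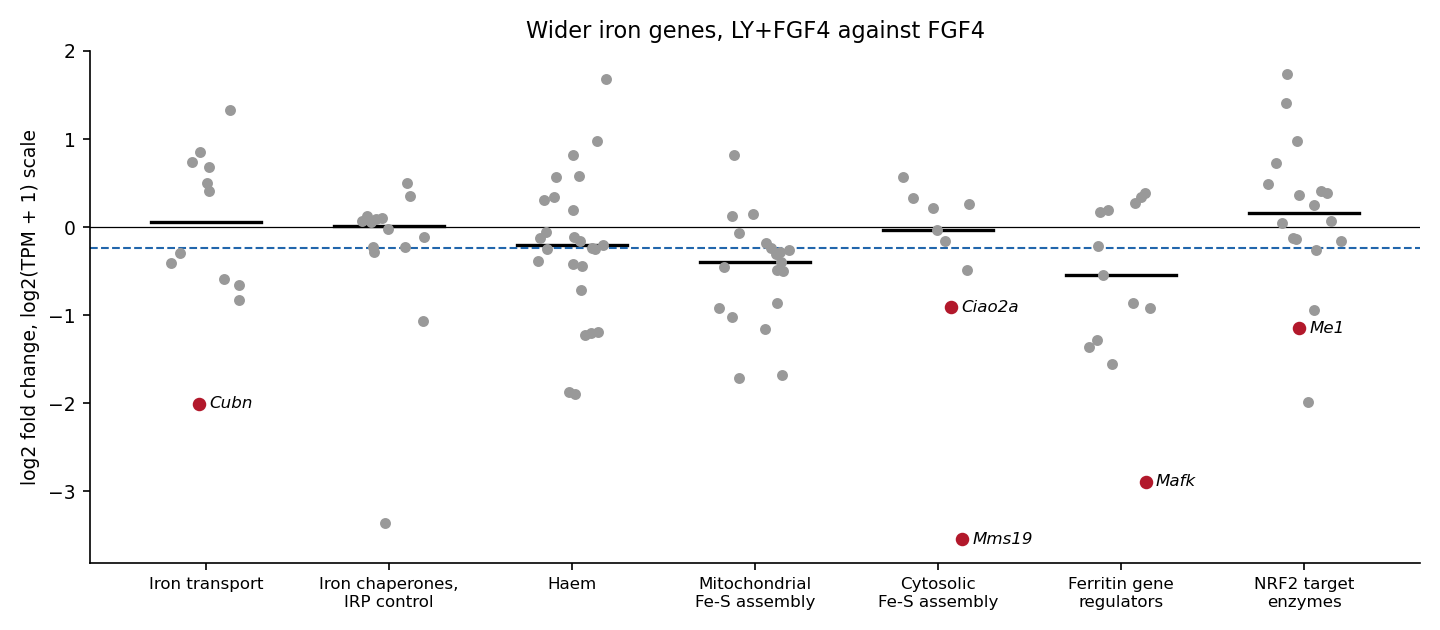
Log2 fold change on the log2(TPM + 1) scale in LY+FGF4 against FGF4 of the 110 tested genes of 7 iron lists, 1 point per gene, with black lines at list medians and a dashed line at the median of all 12034 genes (-0.24). The 5 red, named genes passed an adjusted p of 0.05 and all lie below 0.

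In FGF4 against DMSO, 0 of the 110 rose and 2 fell, where 1.46% of all genes fell. Pcbp1, a chaperone that hands iron to ferritin, averaged 958 ± 235 TPM in FGF4 and 1618 ± 178 TPM in DMSO (log2 fold change -0.78, limma adjusted p = 0.0117). Txn1, thioredoxin, averaged 104 ± 28.9 TPM in FGF4 and 212 ± 37.2 TPM in DMSO (-1.06, limma adjusted p = 0.0177). Txn1 did not pass without DMSO replicate 6, 7 or 8 (limma adjusted p = 0.0568, 0.0524 and 0.0625). With the trophectoderm score as a covariate neither passed (limma adjusted p = 0.228 for Pcbp1 and 0.108 for Txn1), and Pcbp1 did not pass with plain empirical Bayes (0.0812), nor Txn1 with genes listed (0.0517). In LY against DMSO 0 of the 110 passed by limma, with 13 at an unadjusted p under 0.05, as had 8.59% of all genes. With library weights 9 were called there (5 higher), without the 6 libraries with few genes 2 (both higher), and with library medians centred 1 (higher).

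In LY+FGF4 against LY, 2 of the 110 rose and 8 fell, where 1.79% of all genes rose and 4.50% fell. Alad, the second enzyme of haem synthesis, averaged 162 ± 45.9 TPM in LY+FGF4 and 66.1 ± 31.7 TPM in LY (log2 fold change 1.37, limma adjusted p = 0.0124). Srxn1, sulphiredoxin, averaged 81.6 ± 42.9 TPM in LY+FGF4 and 19.6 ± 14.3 TPM in LY (2.26, limma adjusted p = 0.0134). Txn1 averaged 125 ± 38.0 TPM in LY+FGF4 and 301 ± 79.8 TPM in LY (-1.27, limma adjusted p = 0.00230). These 3 passed with any single library left out, but none passed with genes listed per library as a covariate (limma adjusted p = 0.198, 0.104 and 0.0724). Without the 6 libraries with few genes, Alad (0.94, adjusted p = 0.279) and Srxn1 (adjusted p = 0.0990) did not pass, nor did Alad with library weights (adjusted p = 0.0643). Pcbp1 (-0.66), the endosomal ferrireductase gene Steap3 (-2.96), the ferredoxin reductase gene Fdxr (-2.46), the porphyrin transporter gene Tmem14c (-3.10), Rbx1 (-0.90), Mafk (-2.48) and Me1 (-0.91) also fell.

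Each of those 7 calls in LY+FGF4 against LY ended when some single library was left out. This held without LY+FGF4 replicate 2 for all 7, with limma adjusted p = 0.0530 for Pcbp1, 0.0755 for Steap3, 0.0755 for Fdxr, 0.0566 for Tmem14c, 0.0658 for Rbx1, 0.0651 for Mafk and 0.0674 for Me1. The others that ended a call were LY+FGF4 replicates 6 and 7 for Steap3, LY replicates 2 and 3 and LY+FGF4 replicate 3 for Fdxr, and LY replicate 2 and LY+FGF4 replicates 5 and 7 for Tmem14c. For Rbx1 they were LY replicates 2, 3, 4 and 5 and LY+FGF4 replicate 6, and for Mafk LY replicates 2 and 3 and LY+FGF4 replicates 3, 6 and 8. Me1 lost its call without 11 of the 13 libraries, all but LY replicate 6 and LY+FGF4 replicate 3. Over these runs the adjusted p reached at most 0.0757 for Tmem14c, 0.0772 for Rbx1 and 0.110 for Me1.

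The genes whose levels went most closely with ferritin were sought among 7372 genes of at least 10 TPM on average, by Pearson r over the 26 libraries with the mean log2 level of Ftl1 and Fth1. The first 5 were Myl6, a myosin light chain (r = 0.798), Arl6ip1, a shaping protein of the endoplasmic reticulum (0.792), the F-box gene Fbxo2 (0.786), the ribosomal protein gene Rpl31 (0.768) and Crip2 (0.763). All 5 had higher means in LY+FGF4 than in FGF4 and in LY than in DMSO, and the values compared share the library and its scaling. Choosing by r over all 26 libraries favours genes that share the step of ferritin with LY. These means are therefore a description and no separate result. Fbxo2 had a mean of 222 TPM in LY+FGF4 against 13.8 TPM in FGF4, and 293 TPM in LY against 36.3 TPM in DMSO. Arl6ip1 had a mean of 2393 TPM in LY+FGF4 against 1091 TPM in FGF4, and 2762 TPM in LY against 1084 TPM in DMSO.

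With the group means taken out, other genes came first. Over the same 26 libraries the deviations of mean ferritin went most closely with those of Aldoa, a glycolytic aldolase (r = 0.699), Sqstm1, the autophagy receptor p62 (0.677), Alad (0.664), Gsr, glutathione reductase (0.654), and Gclm, a subunit of the enzyme that starts glutathione synthesis (0.600). Of these 5, Gsr and Gclm are on the list of NRF2 target enzymes and Alad is on the haem list, which hold 18 and 25 tested genes. The share of these lists among the 7372 genes was not computed, and a link to NRF2 was not tested. The Ftl1 and Fth1 deviations averaged here had r = 0.160 with each other. Gsr did not follow the step with LY, with means of 86.6 TPM in LY+FGF4, 85.4 in FGF4, 85.3 in LY and 89.0 TPM in DMSO. The coefficients were picked as the highest of 7372 and are given with no test.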

How the data were processed

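The authors deposited 1 table of TPM per gene symbol for 26 libraries, and no read counts were used here, so the depth is unknown and no counting interval is given. Reads were trimmed and de-duplicated per the labels, and the submitters' processing notes name STAR, RSEM and mm10; the sources used here give neither versions nor the annotation. All columns were matched to samples by title, and 0 were left unmapped. Genes with at least 1 TPM in at least 5 libraries (12034) were fitted in 1 limma 3.58.1 model (R 4.3.3, trend and robust empirical Bayes) of log2(TPM + 1) with 1 mean per group, and called at a Benjamini-Hochberg adjusted p under 0.05 over all genes. Fold changes on this scale understate those of low genes. The fit was also run on simulated normal values with the same spread in every group. These lack the zeros and the few-gene libraries of the real data, so that run does not cover them. Correlations used 100000 permutations within groups (Python 3.11.15, numpy 2.4.6). Samples are separate embryos.

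The members and gene lists were chosen with earlier results of these data known. The text names all 9 members, up to 4 called genes with the smallest p per list and comparison, all detected ferritin copies, and the 5 genes most like ferritin by each measure, leaving out copies, predicted genes, pseudogenes and Y-linked genes. Replicate numbers recur between groups. Over all tested genes, 0 of 31 same-numbered pairs had residuals correlated over 0.1, which does not settle whether single genes share an effect of the number. Alternatives were pseudocounts of 0.1 and 5, no filter and a filter at 5 TPM, centring on library medians, library weights, covariates, a replicate block, plain empirical Bayes, and leaving out libraries. Positions and untranslated regions are from GENCODE M21 (GRCm38).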

Additional observations from a re-analysis of the deposited data

Results flagged for a closer look

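In 34 groups of member levels examined, 7 held a library farther from the rest than Dixon's 95% limit allows. That limit is meant for normally distributed values, and these are TPM with zeros among them, so the 7 are not set against a chance rate. Ftl1 had 2373 TPM in DMSO replicate 8, against 1504 to 1606 TPM in the other DMSO libraries. Fth1 had 4344 TPM in LY replicate 5, against at most 2507 TPM in the other LY libraries. In LY against DMSO both ferritin chains stood apart with these libraries included. Tfrc had 97.7 TPM in LY+FGF4 replicate 3 and 73.1 TPM in FGF4 replicate 8. Slc40a1 had 8.04 TPM in LY+FGF4 replicate 7 and 0.95 TPM in LY replicate 8, in groups otherwise at or near 0. With 6 of 7 LY values at 0, any value above 0 would have been flagged there. Aco1 had 288.72 TPM in LY replicate 7, against at most 111 TPM in the other LY libraries.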

How the results depend on the processing

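In LY+FGF4 against FGF4, Ftl1 passed under all alternatives run, with log2 fold changes from 0.89 to 1.05 and from 0.95 to 1.08 when 1 library was left out. Fth1 stayed positive, from 0.82 to 1.20 and from 1.07 to 1.28, and lost its call with library weights (1.03) and without the 6 libraries with few genes (0.82), which leaves 1 of 8 members called under either. The genes called there, 427 in all, were 111 with library weights, 187 with genes listed as a covariate (113 higher against 87 of 427), 224 with a replicate block, 171 without the few-gene libraries, and 282 to 589 with 1 library left out. In LY against DMSO, 45 genes (9 higher) became 496 with weights, 19 with genes listed, 5 with the block, 134 without the few-gene libraries, 28 with plain empirical Bayes and 16 to 50 with 1 library left out; centring gave 15 higher. In FGF4 against DMSO, 294 became 1074, 181, 41 and 470 under weights, genes listed, the block and without the few-gene libraries, 41 with the trophectoderm score, 187 with plain empirical Bayes and 112 to 431 with 1 library left out. Members called there were 0 with the trophectoderm score, 0 with the replicate block (adjusted p = 0.138 for Ncoa4; 0.104 for Pcbp1 and 0.183 for Txn1 of the wider lists) and 0 to 1 with 1 library left out. In LY+FGF4 against LY, 758 became 356 with weights, 108 with genes listed and 497 with the trophectoderm score, ranging from 528 to 872 with 1 library left out, and members called became 1 with genes listed. The replicate block gave Ftl1 1.05 and Fth1 1.08 in LY+FGF4 against FGF4, both still passing. Over all tested genes the numbers showed no pairing of libraries (median r -0.00406, with 2 of 24 libraries correlated best with their own number).

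In the tested comparisons, the member signs that turned belonged to members that did not pass. In LY against DMSO, given without a test, Aco1 ranged from -0.18 to 0.094 over the settings and from -0.30 to 0.12 with 1 library left out, and Hmox1 from -0.54 to 0.30 and from -0.57 to 0.66. Hmox1 in LY+FGF4 against FGF4 was -0.087 with weights and -1.18 without the few-gene libraries, and in LY+FGF4 against LY -0.38 without them. Tfrc was -0.057 in LY+FGF4 against LY without them and 0.0078 in FGF4 against DMSO with the block. In FGF4 against DMSO, Slc11a2 was -0.046 with the trophectoderm score, and Hmox1 was -0.27 at a pseudocount of 0.1 and -0.10 with the block. Ftl1 in LY+FGF4 against LY was 0.0048 with the block. With 1 library left out, Ftl1 in LY+FGF4 against LY ranged from -0.091 to 0.085, Slc11a2 there from -0.48 to 0.17, and in FGF4 against DMSO from -0.037 to 0.24, and Hmox1 there from -0.070 to 0.72. The cause was not tested. TPM hold no read depth, so the precision of low genes such as Slc40a1 and Ireb2 is not known.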
